A study of Homo sapiens with 6 samples.

Results

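Aminoacyl-tRNA synthetases join each amino acid to its transfer RNA (tRNA), the step that lets the ribosome read the genetic code. Human cells hold separate sets of these enzymes for the cytosol and for the mitochondrion, nearly all encoded in the nucleus by different genes. Many cytosolic synthetase genes are known to be switched on by ATF4, which drives the response to amino acid shortage and other stress, and several cytosolic enzymes sit together in a large multisynthetase complex. The 35 genes described here were taken by name from a list of the family, 20 cytosolic and 15 mitochondrial, out of 20045 genes with a named probe on the array. On the cytosolic side, 2 genes had no named probe and were not analysed here. The remaining 33 genes (18 cytosolic and 15 mitochondrial) had 38 probes. GARS1 and KARS1, which serve both compartments, were counted as cytosolic only, in all counts and medians below. All 33 passed the filter on dim probes, and the probe that stood for each gene was detected on 6 of 6 arrays.

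RNA was taken from SK-Mel-147, an established human melanoma cell line, 48 h after transfection. It was hybridised to Illumina HumanHT-12 v4 arrays, of which each of 3 groups had 2. The groups were cells given miR-638, a microRNA, cells given antagomiR-638, an oligonucleotide made to block this microRNA, and mock cells. The sources disagree about the control: by the sample titles it was mock-transfected, by the series text it received a non-targeting sequence, by the study's legend a control antagomiR, and its data columns are headed NT. No source says whether the duplicate arrays came from separate cultures, so the p-values measure a spread that may be technical. All 3 groups share 1 cell line and 1 time point, and the level of miR-638 itself was not analysed here. Correlations of log2 values over kept probes were between 0.994 and 0.995 within groups and between 0.976 and 0.988 across groups. Of 7 melanocyte markers with a named probe, MITF and SOX10 were detected on all arrays, whereas PMEL, MLANA, S100B, TYR and TYRP1 were detected on none. Of 5 leukocyte markers CD14 and CD68 were detected on all arrays and PTPRC and CD3E on none. The summed intensity of these 5 was 2853 to 3021 in miR-638 cells, 4760 to 5568 in antagomiR-638 cells and 2488 to 2759 in mock cells. CD68 rose with antagomiR-638 by 1.01 ± 0.14 on the log2 scale against mock (limma adjusted p = 0.00111), whereas CD14 differed by -0.39 ± 0.18 (adjusted p = 0.149). Of 6 fibroblast markers LUM alone was detected on all arrays, and it was lower with miR-638 than with antagomiR-638, by -0.66 ± 0.11 (adjusted p = 0.00264), with summed intensities of the 6 of 468 to 487 in miR-638 cells, 749 to 787 in antagomiR-638 cells and 624 to 625 in mock cells. The part of these markers in the results below was not tested. In such bulk RNA, fewer cells of a type and less RNA per cell cannot be told apart.

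The microRNA is shown as the sequence the treatments add or block, and promoters of 6 cytosolic members as a feature that some of the family share. The mature microRNA from RefSeq (GRCh38.p14, chr19:10718419-10718443, plus strand) is given with its seed, bases 2 to 8, in capitals.
hsa-miR-638: aGGGAUCGcgggcggguggcggccu
ATF4 with a C/EBP partner binds composite elements close to TGATGNAA. This motif was searched on both strands in the RefSeq promoter windows, which run from 250 bases before to 50 bases after a start site, and it was present in 1270 of 35116 windows (3.62%) and in 1217 of 27305 genes (4.46%). Of the 29 listed synthetase genes with a window, 8 held it: 7 of 16 cytosolic genes (AARS1, CARS1, GARS1, IARS1, MARS1, NARS1 and TARS1) and 1 of 13 mitochondrial genes (YARS2). The windows of 60 bases below run 5′ to 3′ on the strand of the gene, with the motif or its reverse complement in capitals.
AARS1 (chr16:70289660-70289719, minus strand): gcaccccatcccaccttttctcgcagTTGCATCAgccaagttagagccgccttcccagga
GARS1 (chr7:30594819-30594878, plus strand): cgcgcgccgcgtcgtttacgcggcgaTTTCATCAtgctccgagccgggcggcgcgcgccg
IARS1 (chr9:92293677-92293736, minus strand): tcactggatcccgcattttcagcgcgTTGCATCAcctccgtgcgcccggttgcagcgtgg
MARS1 (chr12:57488038-57488097, plus strand): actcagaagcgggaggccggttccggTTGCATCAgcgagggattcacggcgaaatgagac
NARS1 (chr18:57621789-57621848, minus strand): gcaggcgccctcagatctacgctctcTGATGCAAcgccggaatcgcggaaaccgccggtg
TARS1 (chr5:33440941-33441000, plus strand): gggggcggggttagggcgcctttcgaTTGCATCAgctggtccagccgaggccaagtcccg
The 6 matches lie at different distances from the start site, with the first motif base at position -187 in AARS1, -33 in GARS1, -13 in IARS1, -4 in MARS1, 15 in NARS1 and 3 in TARS1. GARS1 and TARS1 each have 2 windows in the table, and the motif is in 1 of them. A match is only a stretch of letters in a reference sequence and binding was not measured. AARS2, LARS1, VARS1, VARS2 and YARS1 had no window in the table.

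With miR-638, 3 synthetase transcripts passed the test against mock. EPRS1, MARS2 and NARS2 rose, by 0.69 to 1.03 on the log2 scale, and none fell. The threshold for a call was a limma adjusted p of 0.01, and the other 30 genes did not pass. Both miR-638 arrays lay above both mock arrays for 13 of 18 cytosolic and 6 of 15 mitochondrial genes. Of all 11501 genes kept, 1.93% were called higher and 1.13% were called lower in this comparison. Without adjustment, 9 of 33 synthetases were higher and 1 was lower at a p under 0.05, against 14.9% and 13.3% of all genes. Both miR-638 arrays lay above both mock arrays for 19 of 33 synthetases and below for 8, against 29.6% and 28.1% of all genes. The median log2 difference was 0.23 over the 18 cytosolic genes, 0.04 over the 15 mitochondrial genes and 0.0015 over all genes. Without the normexp background step, or by one-way ANOVA, 0 synthetases were called against mock with either oligonucleotide.

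**Figure D1:**
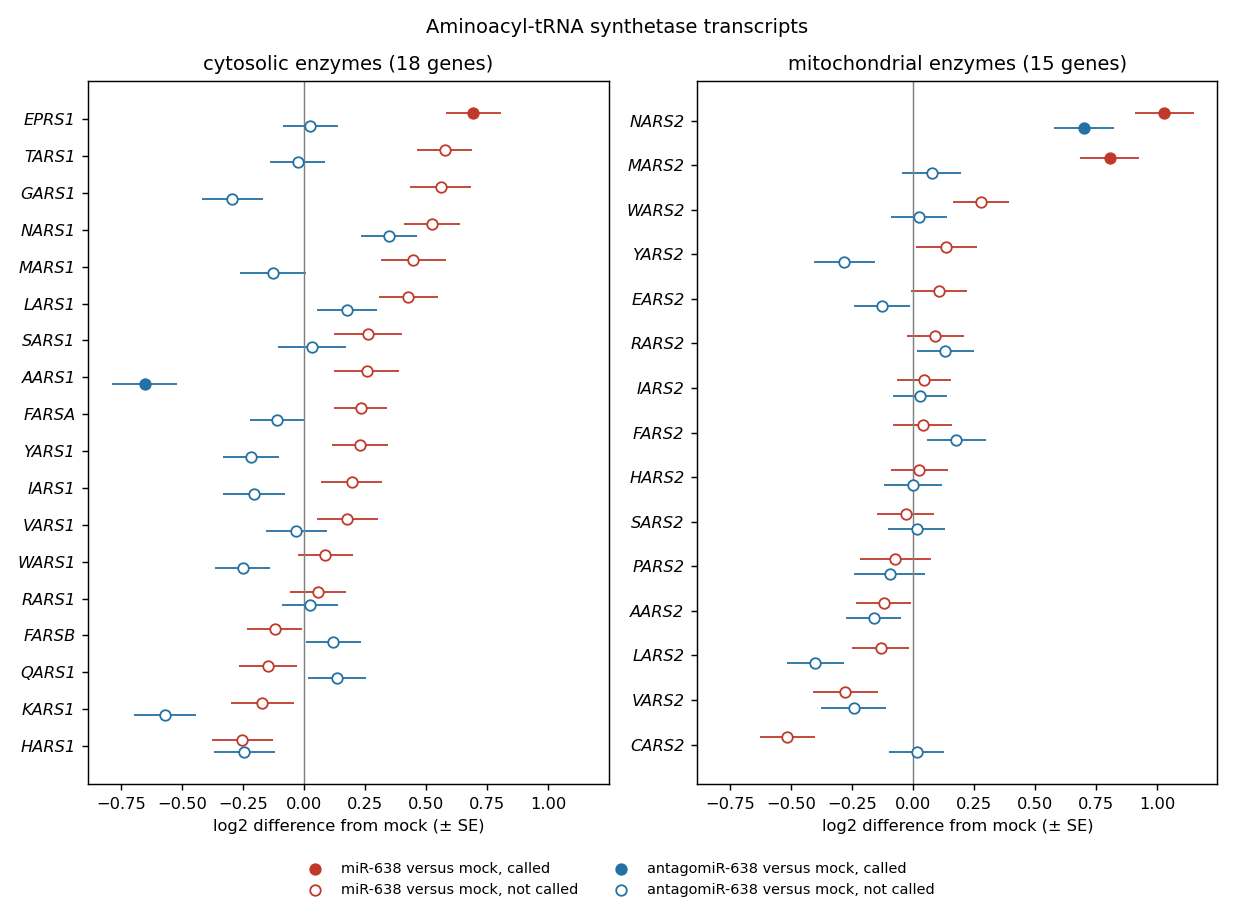
Log2 difference from mock (x axis, ± SE) of each synthetase gene (y axis) with miR-638 in red and antagomiR-638 in blue, with cytosolic enzymes on the left and mitochondrial enzymes on the right. Filled points are the 3 calls with miR-638 (EPRS1, MARS2, NARS2) and the 2 calls with antagomiR-638 (AARS1, NARS2), and both comparisons use the same mock arrays.

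NARS2, the mitochondrial asparaginyl-tRNA synthetase, differed from mock with both oligonucleotides. Its deposited intensity was 294 and 287 in miR-638 cells, 239 and 218 in antagomiR-638 cells, and 144 and 125 in mock cells. The 3 groups did not overlap, with the mock arrays lowest. NARS2 was higher with miR-638 by 1.03 ± 0.12 on the log2 scale (SE, 2.04-fold, limma adjusted p = 0.00158) and with antagomiR-638 by 0.70 ± 0.12 (1.63-fold, adjusted p = 0.00409). Between miR-638 and antagomiR-638 the difference was 0.33 ± 0.12 (adjusted p = 0.0782). When single arrays were left out, the miR-638 call was lost without mock array 2 or either miR-638 array (adjusted p 0.00695 to 0.0188 over the 6 fits). The antagomiR-638 call held only without either miR-638 array (0.00822 to 0.0451).

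MARS2, which charges the mitochondrial methionine tRNA used both to start and to extend chains, was higher with miR-638 than in both other groups. Its intensity was 446 and 431 in miR-638 cells, 240 and 278 in antagomiR-638 cells, and 251 and 237 in mock cells. Both miR-638 arrays were above all 4 others, which overlapped each other. The difference was 0.81 ± 0.12 (1.75-fold, limma adjusted p = 0.00496) against mock and 0.73 ± 0.12 (1.66-fold, adjusted p = 0.00251) against antagomiR-638. A dimmer second probe, with 44.8 and 43.6 in miR-638 cells, 35.3 and 41.0 in antagomiR-638 cells and 23.3 and 36.2 in mock cells, differed by 0.41 ± 0.15 (adjusted p = 0.122) and 0.15 ± 0.15 (adjusted p = 0.493) in the same comparisons and was not called. The call against mock was lost without any 1 of the 6 arrays (adjusted p 0.0123 to 0.0425), and the call against antagomiR-638 held only without 1 of the mock arrays (0.00436 to 0.0292).

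EPRS1, the glutamyl-prolyl-tRNA synthetase of the multisynthetase complex, carries both activities in 1 chain. Its intensity was 2013 and 1891 in miR-638 cells, 1223 and 1222 in antagomiR-638 cells, and 1243 and 1160 in mock cells. The miR-638 arrays stood above the other 4, and the antagomiR-638 arrays fell within the range of mock. EPRS1 was higher with miR-638 by 0.69 ± 0.11 (1.62-fold, limma adjusted p = 0.00753) against mock and by 0.67 ± 0.11 (1.59-fold, adjusted p = 0.00285) against antagomiR-638. The call against mock was lost without any 1 array (adjusted p 0.0219 to 0.0584), and that against antagomiR-638 held only without 1 of the mock arrays (0.00476 to 0.0259).

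With antagomiR-638 the family showed 1 call in each direction against mock, AARS1 lower and NARS2 higher, and the other 31 genes did not pass. Of all genes, 5.83% were called higher and 4.78% lower. Without adjustment, 2 synthetases were higher and 5 lower at a p under 0.05, against 20.4% and 18% of all genes. Both arrays lay above mock for 7 of 33 synthetases and below mock for 13, against 34.6% and 31.4% of all genes. The median log2 difference was -0.07 over cytosolic genes, 0.01 over mitochondrial genes and 0.013 over all genes.

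AARS1, the cytosolic alanyl-tRNA synthetase, was the synthetase called lower with antagomiR-638, and it was highest with miR-638. Its intensity was 4057 and 4088 in miR-638 cells, 2190 and 2129 in antagomiR-638 cells, and 3043 and 3817 in mock cells. The groups did not overlap, and the mock arrays, which differed most from each other, lay in between. With antagomiR-638 AARS1 fell by 0.65 ± 0.13 on the log2 scale against mock (limma adjusted p = 0.00902), a call that held only without mock array 1 (0.00922 to 0.0607 over the 6 fits). With miR-638 its difference from mock was 0.26 ± 0.13 (95% interval -0.04 to 0.56, adjusted p = 0.266). Between miR-638 and antagomiR-638 cells it was higher by 0.91 ± 0.13 (1.88-fold, adjusted p = 0.00132), a call that held only without 1 of the mock arrays (0.0011 to 0.0171).

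The direct comparison of miR-638 with antagomiR-638 gave 6 calls, the most in the family. AARS1, GARS1, TARS1 and EPRS1 of the cytosol and MARS2 of the mitochondrion were higher with miR-638, and the mitochondrial CARS2 was lower. The other 27 genes did not pass, and 7.55% of all genes were called higher and 8.28% lower. Without adjustment, 14 synthetases were higher and 2 lower at a p under 0.05, against 20.5% and 21.4% of all genes. Both miR-638 arrays lay above both antagomiR-638 arrays for 19 synthetases and below for 5, against 33.6% and 34% of all genes. The median log2 difference was 0.34 over cytosolic genes, 0.03 over mitochondrial genes and -0.0070 over all genes.

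GARS1, the glycyl-tRNA synthetase, serves both compartments from 1 gene. Its intensity was 3855 and 3430 in miR-638 cells, 1884 and 2136 in antagomiR-638 cells, and 2390 and 2541 in mock cells. As with AARS1, the groups did not overlap and mock lay in the middle. GARS1 was higher with miR-638 than with antagomiR-638 by 0.85 ± 0.13 (1.81-fold, limma adjusted p = 0.00132). Its difference from mock was 0.56 ± 0.13 with miR-638 (adjusted p = 0.0268) and -0.29 ± 0.13 with antagomiR-638 (adjusted p = 0.127), so neither was called. The call was lost without miR-638 array 1 (adjusted p = 0.0135) or antagomiR-638 array 1 (adjusted p = 0.0191).

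TARS1, the cytosolic threonyl-tRNA synthetase, had an intensity of 2655 and 2642 in miR-638 cells, 1673 and 1809 in antagomiR-638 cells, and 1742 and 1805 in mock cells. Only the miR-638 arrays stood apart. TARS1 was higher with miR-638 than with antagomiR-638 by 0.60 ± 0.11 (1.52-fold, limma adjusted p = 0.00467). The difference of miR-638 from mock was of like size, 0.57 ± 0.11, with an adjusted p of 0.0166. The call held only without 1 of the mock arrays (0.00779 to 0.0446).

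CARS2, the mitochondrial cysteinyl-tRNA synthetase, which in mammals also makes cysteine persulfide, ran the other way. Its intensity was 213 and 218 in miR-638 cells, 327 and 310 in antagomiR-638 cells, and 323 and 307 in mock cells. Both miR-638 arrays were below the other 4, which overlapped. CARS2 fell by 0.53 ± 0.11 on the log2 scale with miR-638 against antagomiR-638 (limma adjusted p = 0.00843), and the difference from mock was -0.52 ± 0.11 (adjusted p = 0.0245). The call was lost without any 1 of the 6 arrays (0.0129 to 0.0625).

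**Figure D2:**
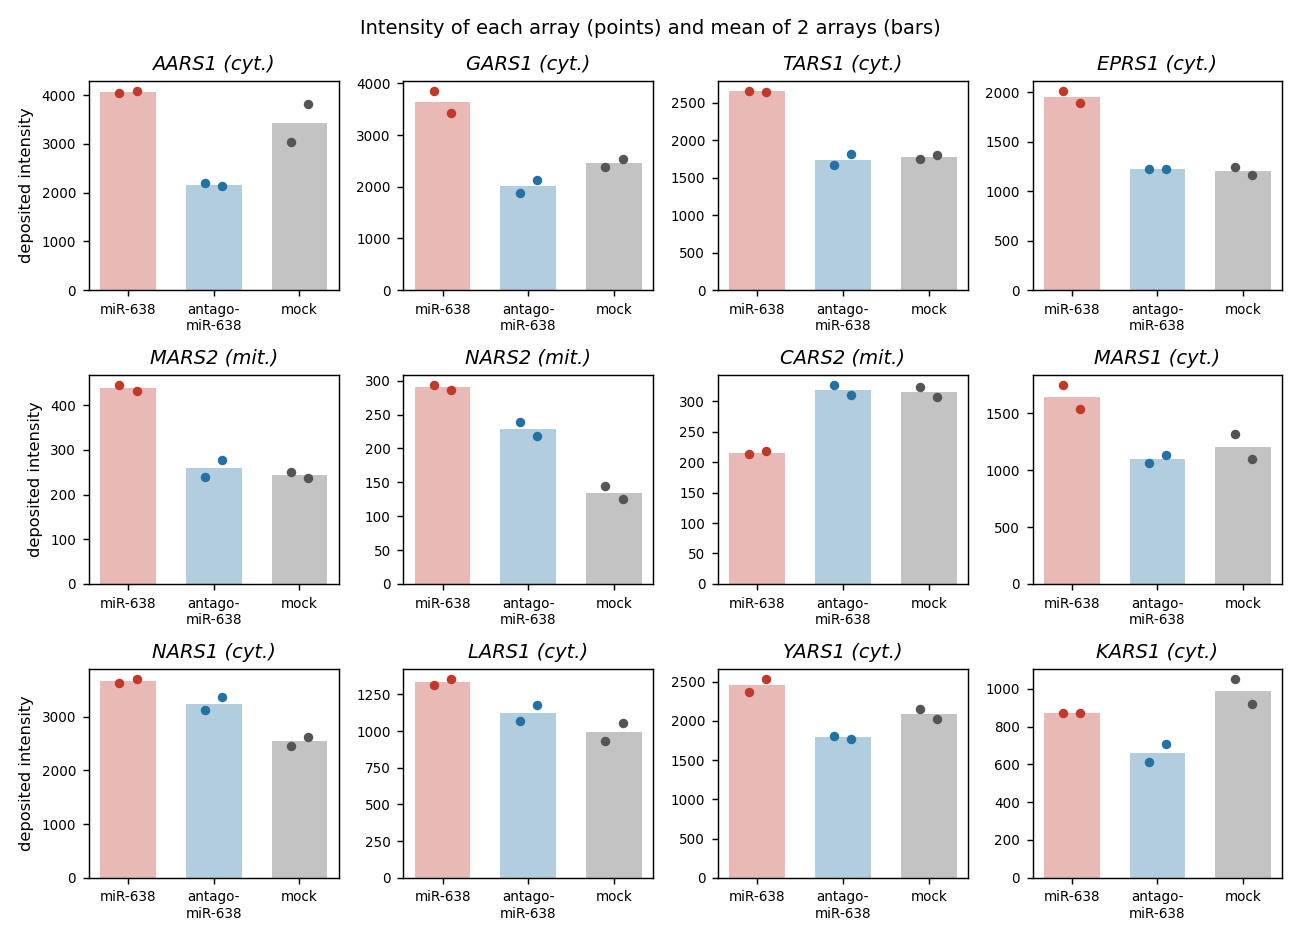
Deposited intensity (y axis, linear, from 0) of the 7 called synthetases and of the 5 uncalled ones with the largest differences, with a point for each array and a bar for the mean of 2 arrays, and cyt. for cytosolic and mit. for mitochondrial. In NARS2 the mock arrays (144 and 125) are the lowest, in CARS2 the miR-638 arrays (213 and 218) are, and in AARS1 and GARS1 mock lies between the treated groups.

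The 5 uncalled members with the largest differences were all cytosolic. KARS1, the lysyl-tRNA synthetase that like GARS1 serves both compartments, had 871 and 874 in miR-638 cells, 611 and 708 in antagomiR-638 cells, and 1055 and 920 in mock cells. Here mock was highest and antagomiR-638 lowest, with differences from mock of -0.17 ± 0.13 for miR-638 and -0.57 ± 0.13 for antagomiR-638 (limma adjusted p = 0.443 and 0.0137). The 2 dual-compartment enzymes lay on different sides of mock in miR-638 cells, though neither difference was called.

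MARS1, the cytosolic methionyl enzyme, had 1749 and 1540 in miR-638 cells, 1062 and 1131 in antagomiR-638 cells, and 1317 and 1093 in mock cells. Its difference was 0.45 ± 0.13 with miR-638 against mock (limma adjusted p = 0.0704) and 0.58 ± 0.13 against antagomiR-638 (adjusted p = 0.0131). The miR-638 arrays were highest and the other groups overlapped. NARS1, the cytosolic asparaginyl enzyme, had 3623 and 3712 in miR-638 cells, 3127 and 3361 in antagomiR-638 cells, and 2461 and 2630 in mock cells. It shared with NARS2 the order miR-638, antagomiR-638, mock, with differences from mock of 0.52 ± 0.11 and 0.35 ± 0.11 (adjusted p = 0.0246 with miR-638 and 0.0603 with antagomiR-638).

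LARS1, the leucyl enzyme, which is also known as a leucine sensor for mTORC1, had 1316 and 1358 in miR-638 cells, 1066 and 1179 in antagomiR-638 cells, and 933 and 1052 in mock cells. It had the same order, with 0.43 ± 0.12 and 0.18 ± 0.12 (limma adjusted p = 0.0602 with miR-638 and 0.337 with antagomiR-638). YARS1, the tyrosyl enzyme, had 2363 and 2539 in miR-638 cells, 1812 and 1775 in antagomiR-638 cells, and 2157 and 2022 in mock cells. Its mock arrays lay between the treated groups, with differences from mock of 0.23 ± 0.11 and -0.22 ± 0.11 (adjusted p = 0.246 with miR-638 and 0.208 with antagomiR-638) and of 0.45 ± 0.11 between miR-638 and antagomiR-638 (adjusted p = 0.0199).

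The other cytosolic members differed by less. FARSA and FARSB are the catalytic and the partner chain of the phenylalanyl enzyme, which works as a tetramer of both. FARSA had 299 and 289 in miR-638 cells, 228 and 230 in antagomiR-638 cells, and 248 and 249 in mock cells, so miR-638 was highest and antagomiR-638 lowest, with no overlap. FARSB had 10353 and 10048 in miR-638 cells, 12492 and 11631 in antagomiR-638 cells, and 11268 and 10929 in mock cells, which is the reverse order. Their differences between miR-638 and antagomiR-638 were 0.34 ± 0.11 for FARSA and -0.24 ± 0.11 for FARSB (limma adjusted p = 0.0491 and 0.154), and neither was called. IARS1, SARS1, VARS1, WARS1 and RARS1 differed from mock by 0.06 to 0.26 with miR-638 and by -0.25 to 0.03 with antagomiR-638, and QARS1 and HARS1 by -0.15 and -0.25 with miR-638. RARS1, an arginyl enzyme of the complex, overlapped between the groups in all 3 comparisons.

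WARS1, the tryptophanyl enzyme and a known interferon-inducible gene, had 2 probes that differed in their call. Its brighter probe had 1227 and 1151 in miR-638 cells, 926 and 947 in antagomiR-638 cells, and 1131 and 1106 in mock cells. The second had 550 and 548 in miR-638 cells, 375 and 356 in antagomiR-638 cells, and 453 and 463 in mock cells. Both probes had the order miR-638, mock, antagomiR-638. The miR-638 against antagomiR-638 difference was 0.34 ± 0.11 on the brighter probe (limma adjusted p = 0.0539) and 0.57 ± 0.11 on the second (adjusted p = 0.00573). Of 8 kept interferon genes, 4 were called higher with antagomiR-638 against mock and none lower, against 5.83% and 4.78% of all genes. IFIT1 was higher there by 4.30 ± 0.16, MX1 by 4.09 ± 0.19 and ISG15 by 2.63 ± 0.16. MX1 was also called higher with miR-638 against mock, by 1.26 ± 0.19 (limma adjusted p = 0.00451). It was 1 of the 8, against 1.93% of all genes called higher. WARS1 differed from mock by -0.25 ± 0.11 with antagomiR-638 (limma adjusted p = 0.141), on the opposite side from IFIT1, MX1 and ISG15. Of the 8 interferon genes, 7 were above mock there, GBP2 and PSMB9 by 0.11 ± 0.13 and 0.12 ± 0.12. IRF1 alone lay below mock, as WARS1 did, at -0.13 ± 0.13 (limma adjusted p = 0.508). The dim second probe of IARS1 (6.58 to 21.2 over the 6 arrays) had no call, and the second probes of FARSB and VARS1 did not pass the filter.

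Grouped by the ATF4-target list, which was written from general knowledge with results of these arrays already known, the cytosolic enzymes gave the following counts. All 12 measured members (AARS1, EPRS1, GARS1, IARS1, LARS1, MARS1, NARS1, SARS1, TARS1, VARS1, WARS1 and YARS1) had a positive difference from mock with miR-638, with a median of 0.34 and a range of 0.09 to 0.69, and both miR-638 arrays above both mock arrays, as for 29.6% of all genes. Only EPRS1 among them was called (1.93% of all genes), and 6 were higher at an unadjusted p under 0.05 (14.9%). Against antagomiR-638 all 12 were positive, 11 without overlap (33.6% of all genes) and 4 called (7.55%), with a median of 0.42. Against mock, antagomiR-638 gave 4 positive and 8 negative values with a median of -0.08. When single arrays were left out, the medians were 0.32 to 0.40 for miR-638 against mock and 0.39 to 0.47 for miR-638 against antagomiR-638.

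The 6 other cytosolic enzymes (FARSA, FARSB, HARS1, KARS1, QARS1 and RARS1) had no call at the settings reported. KARS1 was called lower with antagomiR-638 against mock with an offset of 50, a robust trend, detection on all arrays or a threshold of 0.05. FARSA was the 1 synthetase called between miR-638 and antagomiR-638 without normexp or with the second deposited table, and both passed there at a threshold of 0.05. With miR-638 2 were above mock and 4 below, with a median of -0.13. Their median was -0.04 for antagomiR-638 against mock and 0.01 for miR-638 against antagomiR-638. The promoter motif shown above was present in 7 of 10 ATF4-list genes with a window and in 0 of 6 others. This describes how such a list is made up as much as these arrays. The 7 include CARS1, which had no named probe, so the motif counts and the array values do not cover the same genes. EPRS1, SARS1 and WARS1 had a window without the motif. These counts are descriptions of a list and were not tested.

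**Figure D3:**
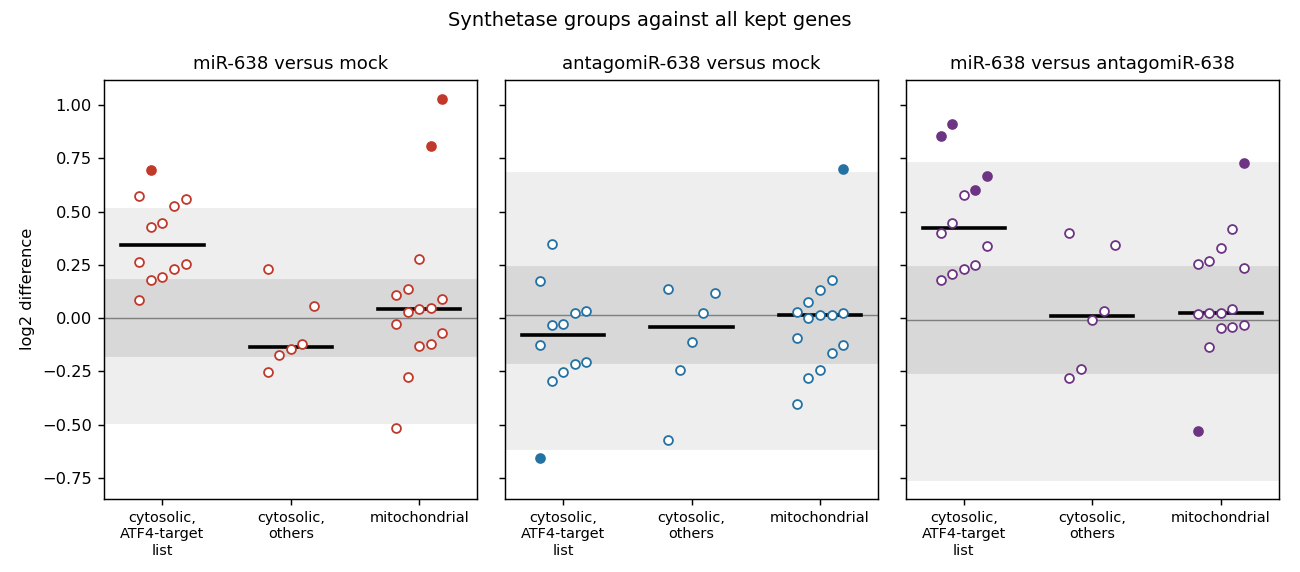
Log2 difference (y axis) of each synthetase (points, filled where called) by group and comparison, with a black line at the group median and grey bands for the middle 50% (dark) and middle 90% (light) of 11501 genes. The 12 ATF4-list enzymes are all above 0 in both miR-638 panels, with medians of 0.34 and 0.42, whereas the 6 other cytosolic enzymes have medians of -0.13 and 0.01 there.

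The cytosolic enzymes were also divided by complex and by class. The 7 measured members of the multisynthetase complex had a median of 0.19 with miR-638 against mock, and the 11 enzymes outside it 0.23. With miR-638 against antagomiR-638 the medians were 0.40 and 0.34. Within the complex EPRS1 and LARS1 stood at 0.69 and 0.43 against mock, and KARS1 and QARS1 at -0.17 and -0.15, so its members lay on both sides of 0. AIMP1, the scaffold protein of the complex with a named probe, differed by -0.05 ± 0.12 with miR-638. Its probe was dim, at 8.7 to 13.3 over the 6 arrays, a level at which the processing draws differences toward 0. The 9 class I and 9 class II enzymes, which differ in the fold of the catalytic domain, had medians of 0.19 and 0.26 against mock and of 0.34 and 0.34 against antagomiR-638. EPRS1, which carries both the glutamyl and the prolyl activity, was counted in class I only, so the split is not clean for it.

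The mitochondrial enzymes other than NARS2, MARS2 and CARS2 had smaller differences. With miR-638 the remaining 12 ranged from -0.28 in VARS2 to 0.28 in WARS2, and none was called. With antagomiR-638 LARS2, the leucyl enzyme, had the largest uncalled difference, with 113 and 122 in miR-638 cells, 100 and 90 in antagomiR-638 cells, and 129 and 132 in mock cells, or -0.40 ± 0.12 against mock (limma adjusted p = 0.0383). YARS2, the mitochondrial gene with the promoter motif, had 798 and 781 in miR-638 cells, 534 and 645 in antagomiR-638 cells, and 724 and 709 in mock cells. Its order matched that of YARS1, which had no window, and that of EARS2, whose windows lacked the motif. For YARS2 the difference between miR-638 and antagomiR-638 was 0.42 ± 0.13 (limma adjusted p = 0.0384). PARS2, the prolyl enzyme, was dim, at 29.2 to 42.8 over the 6 arrays, and its groups overlapped in all 3 comparisons.

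Set beside the enzyme for the same amino acid, the cytosolic difference was above the mitochondrial one in 9 of 15 pairs with miR-638 against mock, in 6 of 15 with antagomiR-638 against mock and in 10 of 15 with miR-638 against antagomiR-638. EPRS1 is paired with both EARS2 and PARS2, and FARS2 with both FARSA and FARSB, so the pairs are not separate. The asparaginyl and methionyl pairs had positive values in both compartments with miR-638, 0.52 for NARS1 with 1.03 for NARS2, and 0.45 for MARS1 with 0.81 for MARS2. In the alanyl pair, AARS1 fell by 0.65 on the log2 scale with antagomiR-638, while AARS2 differed by -0.16 ± 0.11 (limma adjusted p = 0.344). The glutamyl and prolyl pairs differed most with miR-638, at 0.69 for EPRS1, 0.11 for EARS2 and -0.07 for PARS2. HARS1 and HARS2, whose RefSeq start sites face away from each other 85 bases apart on chromosome 5, had differences of -0.25 ± 0.12 and 0.03 ± 0.12 with miR-638, and neither was called.

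**Figure D4:**
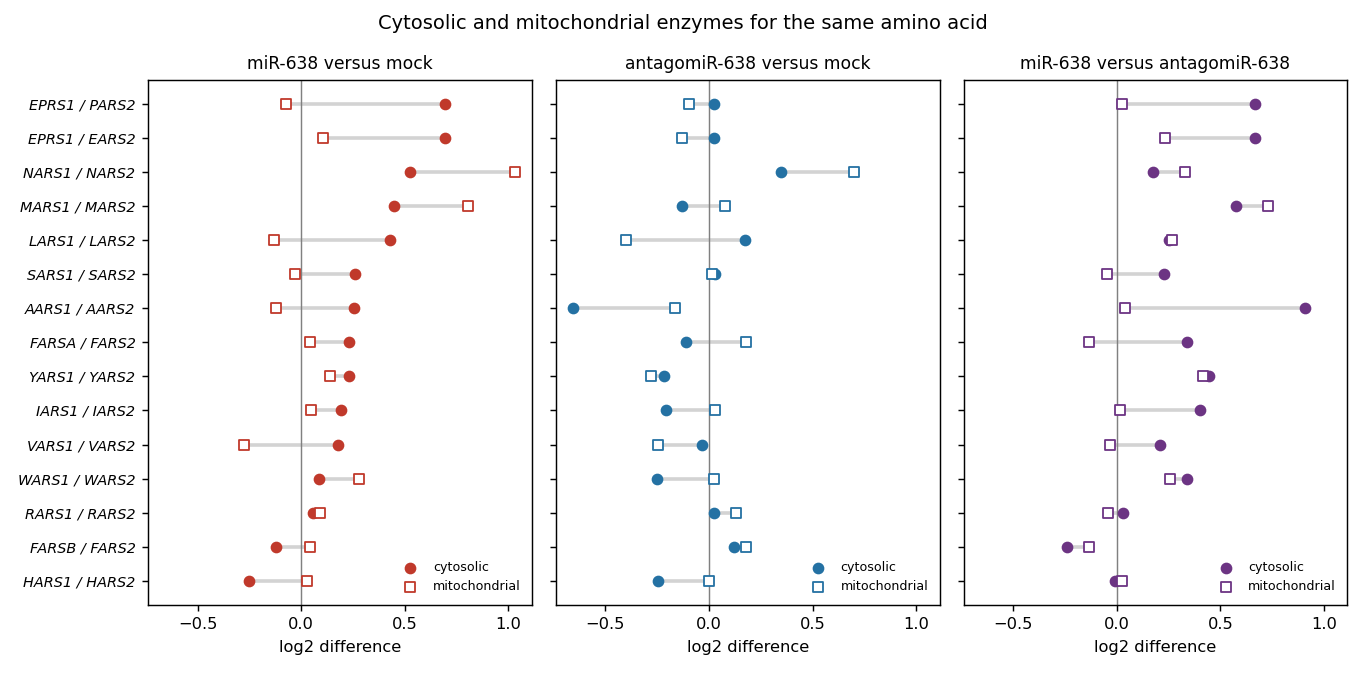
Log2 difference (x axis) of the cytosolic enzyme (filled circle) and the mitochondrial enzyme (open square) for the same amino acid in 3 comparisons, with pairs (y axis) ordered by the cytosolic value in the first panel. The cytosolic value is the higher one in 9, 6 and 10 of 15 pairs from left to right.

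Genes that work beside the synthetases were examined as companion lists. Among 5 tRNA-handling genes, XPOT, the tRNA export factor, TRNT1, which adds the CCA end that synthetases charge, and SEPSECS, which makes selenocysteine on its tRNA, were higher with miR-638 than with antagomiR-638 by 0.72 ± 0.12, 0.61 ± 0.12 and 0.70 ± 0.11 (limma adjusted p = 0.00233, 0.0048 and 0.00199). DTD1 lay the other way there, at -0.35 ± 0.12 (limma adjusted p = 0.0542), and PSTK was at 0.09 ± 0.14 (limma adjusted p = 0.684). In that comparison 7.55% of all genes were called higher and 8.28% lower. None of the 5 was called against mock in either group. The 4 partners of mitochondrial charging (GATB, GATC and QRSL1 of the amidotransferase that completes glutaminyl-tRNA, and MTFMT, which formylates methionyl-tRNA) had no call, with MTFMT at 0.14 ± 0.13 with miR-638. QRSL1 was detected on only 3 of the 6 arrays, with intensities of -1.4 to 9.4, so its lack of a call says little. Of 14 cytosolic translation factors, ETF1, the termination factor, rose with miR-638 by 1.01 ± 0.14 and with antagomiR-638 by 0.70 ± 0.14 (adjusted p = 0.00296 and 0.00712). EIF2S2, a chain of the initiation factor that brings the first methionyl-tRNA, fell by 0.83 ± 0.12 with antagomiR-638 (adjusted p = 0.00142). Against mock, 1.93% of all genes were called higher with miR-638, and 5.83% higher and 4.78% lower with antagomiR-638. Of 8 mitochondrial translation factors MTIF3 was called, lower by -0.61 ± 0.11 with miR-638 than with antagomiR-638 (adjusted p = 0.00379). That is 1 gene in 8, against 8.28% of all genes called lower.

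ATF4 and 15 of its other targets, genes of the same response outside the synthetase family, were measured on the same arrays. ATF4 itself had 6705 and 7386 in miR-638 cells, 4353 and 4239 in antagomiR-638 cells, and 5102 and 4564 in mock cells, or 0.54 ± 0.12 with miR-638 against mock (limma adjusted p = 0.026) and 0.71 ± 0.12 against antagomiR-638 (adjusted p = 0.00279). CHAC1 passed the filter only through the miR-638 arrays and was left out of the counts. Of the other 15 genes 7 were called higher with miR-638 against mock and none lower (median 0.54), against 1.93% of all genes called higher. With miR-638 against antagomiR-638, 11 were higher and none lower (median 1.09), against 7.55%. With antagomiR-638 against mock 6 were lower and none higher (median -0.24), against 4.78% of all genes called lower. The list was not of 1 sign there, since DDIT3 and ATF3, transcription factors of the stress response, were at 0.49 ± 0.13 and 0.49 ± 0.12 (adjusted p = 0.0242 and 0.0219), and SESN2 and SLC3A2 at 0.42 ± 0.16 and 0.28 ± 0.11 (adjusted p = 0.0995 and 0.106), with both antagomiR-638 arrays above both mock arrays in all 4. ASNS, asparagine synthetase, had 1143 and 1178 in miR-638 cells, 179 and 172 in antagomiR-638 cells, and 569 and 573 in mock cells. Its groups were wide apart, with mock in the middle, and it was higher by 1.00 ± 0.11 with miR-638 and fell by 1.62 ± 0.11 with antagomiR-638 (adjusted p = 0.00116 and 6.9e-05). MTHFD2, a mitochondrial folate enzyme, was higher by 0.80 ± 0.13 with miR-638 and fell by 1.28 ± 0.13 with antagomiR-638 (adjusted p = 0.00683 and 0.000286). CHAC1, a glutathione-degrading enzyme, was detected on the miR-638 arrays alone, at least 3.79-fold above both mock and antagomiR-638 cells by the bound described under processing. ASNS fell with antagomiR-638, while NARS1 and NARS2, the enzymes that use asparagine, were at 0.35 and 0.70 in the same comparison.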

How the data were processed

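Total RNA of 6 SK-Mel-147 samples was hybridised to Illumina HumanHT-12 v4 arrays. The authors processed the deposited intensity values with the R package lumi, whose version is not given in the sources used here, and deposited a detection p-value for each probe and array. The intensities were linear, background-subtracted (26.2% were below 0) and in effect quantile-normalized, since sorted columns differed by at most 0.349, so a shift of all transcripts could not be seen. Depth has no meaning for arrays, and the number of arrays limits the precision. Symbols came from the platform table and were matched to RefSeq by Entrez identifier.

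In limma 3.58.1 (R 4.3.3), normexp with an offset of 16 and quantile scaling were applied before log2, which draws the folds of dim probes toward 0. Probes were kept where some group had a detection p-value under 0.05 on both its arrays (20145 probes, 11501 genes), and the brightest kept probe stood for its gene. A model of the 3 group means over all 6 arrays (3 residual and 6.31 prior degrees of freedom) was tested by two-sided contrasts, with Benjamini-Hochberg adjustment over all kept probes. Each ± is the standard error of the log2 difference from this fit. For CHAC1, each array of the undetected group took the higher of its own signal and the lowest signal among detected probes. The test was checked on simulated data with independent noise of the fitted spread. Such data cannot show how it behaves if the duplicates are technical. Values of every array are given for members called in any comparison, for the 5 uncalled members with the largest difference, and for GARS1 and KARS1. FARSA, FARSB, WARS1, LARS2, YARS2 and the second probes were added after their values were seen. Among companion genes, IFIT1, MX1, ISG15, ASNS, CHAC1 and MTHFD2 were named by the size of their difference, and the rest after their values were seen. The members and lists were chosen with earlier results of these data known. Alternatives changed the background correction, offset, deposited table, scaling, filter, threshold, test, arrays in the fit, weights and probe rule, used replicate numbers as blocks, and omitted single arrays. Groups came from the sample titles.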

Additional observations from a re-analysis of the deposited data

How the results depend on the processing

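Called synthetases numbered 1 cytosolic and 2 mitochondrial for miR-638 against mock, 1 and 1 for antagomiR-638 against mock, and 4 and 2 for miR-638 against antagomiR-638. Without normexp, and with the second deposited table, the counts were 0 and 0, 0 and 0, and 1 and 0, the 1 being FARSA, so that all 6 calls between miR-638 and antagomiR-638 were lost. One-way ANOVA gave 0 in all, with 0 of 11501 genes called, although 17 synthetases and 4271 genes had an unadjusted ANOVA p under 0.05. For miR-638 against mock, an offset of 50, a threshold of 0.05 or a robust trend gave 4 cytosolic calls. No probe filter, only the 2 groups compared or the replicate block gave 0 cytosolic and 1 mitochondrial call, and averaging probes gave 1 mitochondrial call. For antagomiR-638 against mock, an offset of 50, detection on all arrays, a robust trend or a threshold of 0.05 gave 2 cytosolic calls, the last also 2 mitochondrial ones. No filter gave 0 and 0, and only the 2 groups or the replicate block gave 0 cytosolic calls. For miR-638 against antagomiR-638, a threshold of 0.05 gave 9 cytosolic calls, and only the 2 groups, averaging probes or the replicate block gave 1 mitochondrial call. The cause was not tested. Median centring, a detection p of 0.01 and array weights moved no count by over 1.5 times.

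Leaving out 1 array gave 0 cytosolic and 0 to 1 mitochondrial calls with miR-638, 0 to 1 and 0 to 1 with antagomiR-638, and 0 to 4 and 0 to 1 between them. The cytosolic minus mitochondrial median was 0.19, -0.086 and 0.31 in the 3 comparisons, and 0.14 to 0.21, -0.16 to -0.0091 and 0.22 to 0.35 without 1 array. Its SD between arrays was 0.070. Over these fits, among the 12 genes with values for every array, signs turned for 5, none of them called in antagomiR-638 against mock, where the turns lay: MARS1 ranged from -0.26 to 0.0041 (without mock array 1), EPRS1 from -0.0234 (without mock array 2) to 0.074, TARS1 from -0.083 to 0.029 (without antagomiR-638 array 1), MARS2 from -0.0231 (without antagomiR-638 array 2) to 0.18, and CARS2 from -0.0230 (without antagomiR-638 array 1, and -0.021 without mock array 2) to 0.052.

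Same-numbered arrays did not deviate together (correlations of -0.069 to -0.054), so the replicate block, whose counts stand above, pairs arrays by number alone. Of the calls, GARS1 between miR-638 and antagomiR-638 outlasted the most omitted arrays (4 of 6). With 2 arrays a group, the smallest synthetase difference called at the settings reported was 0.53 in size on the log2 scale, though smaller ones were called at some alternatives, and intensities of dim probes such as PARS2 carry the least information.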
